A study of Mus musculus with 14 samples.

Results

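A set of 10 genes of motor neurons and of acetylcholine transmission was described in fetal mouse brain at E13.5 and E18.5, ages in embryonic days. They were chosen by gene symbol and are Mnx1, Isl1, Isl2, Lhx3, Lhx4, Islr2, Prph, Chat, Slc18a3 and Slc5a7, 10 of the 41934 genes in each age's table. Each symbol matched 1 protein-coding gene. The study sequenced RNA from the whole brains of individual male littermate fetuses on a C57BL/6J background. At E13.5 there were 4 Dio3+/+ and 2 Dio3-/- fetuses, and at E18.5 there were 3 Dio3+/+ and 5 Dio3-/- fetuses. Dio3 encodes the type 3 deiodinase, which inactivates thyroid hormone, and Dio3-/- fetuses carry an inactivating mutation of it in every cell. The libraries came from 2 batches, sequenced at different facilities after ribosomal RNA was depleted with different kits, and the authors adjusted the counts between batches.

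The level used here is the mean normalized count, the authors' mean over the 6 libraries of E13.5 or the 8 libraries of E18.5 after each library's counts were divided by its size factor. It pools both genotypes, so the difference between genotypes was not analysed here, and the mean of Dio3 itself, 99.0 at E13.5 and 129 at E18.5, checks no genotype label. Because each mean is 1 value per age with no replicate error, ratios between the ages are given without a test. The ages also differ in their share of Dio3-/- fetuses, 2 of 6 against 5 of 8, and age and genotype share cannot be told apart in the ratios. In whole brain, fewer cells of a type and less RNA per cell cannot be told apart either. The means summed to 28582600 at E13.5 and 24565700 at E18.5, to 6 digits, and the size factors of the libraries spanned 0.827 to 1.15 and 0.947 to 1.17. The 10 brain markers, such as the neuronal tubulin gene Tubb3 with means of 37118 and 29678, were all above 100 at both ages.

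Motor neurons are the neurons whose axons leave the central nervous system to drive muscle, and in the brain they lie in the cranial nerve nuclei of the brainstem. LIM homeodomain transcription factors of the Isl and Lhx families, together with Mnx1, set their identity in the embryo, and the Isl and Lhx3/Lhx4 factors bind DNA jointly through the adaptor Ldb1. Isl1 also acts in developing striatum, retina and sensory ganglia, and Lhx3 and Lhx4 in the pituitary. Motor neurons and the cholinergic neurons of the basal forebrain and striatum make acetylcholine with the enzyme Chat, pack it into vesicles with the transporter Slc18a3 (VAChT) and take choline back up with Slc5a7.

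The transcription factors of the set stood lower at E18.5 than at E13.5, and the acetylcholine genes differed by less than 1.5-fold. Isl2, Lhx4 and Lhx3 were lower by 7.94-fold, 5.40-fold and 5.09-fold, on the scale of means plus 1 with the median of genes set to no change. Chat, Slc18a3 and Slc5a7 lay between 1.07-fold and 1.49-fold higher on the same scale. Of the 9 genes with a mean of at least 10 at 1 or both ages, 3 were at least 2-fold lower at E18.5 and 0 were at least 2-fold higher. Mnx1, below that minimum, was 3.95-fold lower and was not counted. Among the 19461 genes with a mean of at least 10 at 1 or both ages, 6.42% were at least 2-fold lower and 14.2% were at least 2-fold higher. The ratios took off a shift of -0.28 log2 between the tables, the median over the 17794 genes with a mean of at least 10 at both ages. Without that step the share of higher genes among all those past 2-fold was 48.5% in place of 68.8%. Of the same 9 genes, 4 were then at least 2-fold lower, as were 2152 of the 19461 genes.

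**Figure D1:**
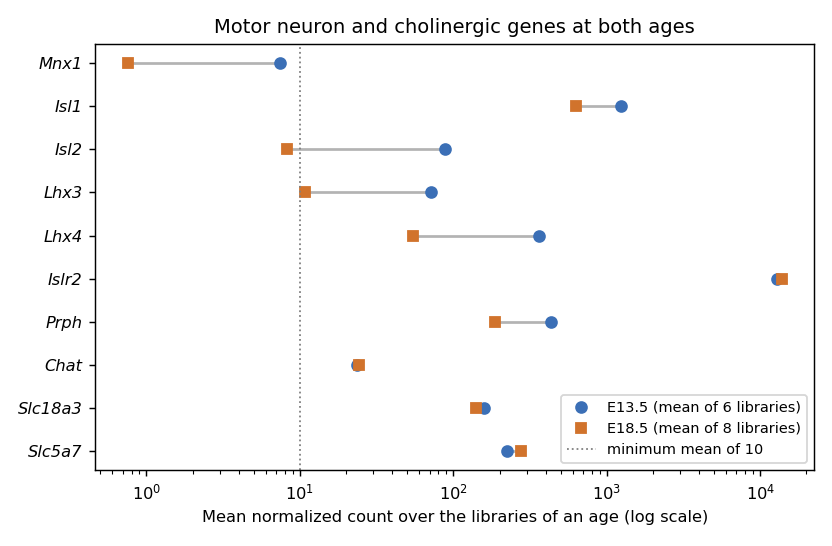
The horizontal log axis gives each gene's mean normalized count at E13.5 (circles, 6 libraries) and E18.5 (squares, 8 libraries) as deposited, before the shift between tables was taken off, and the dotted line marks the minimum mean of 10. Isl2, Lhx3 and Lhx4 show wide gaps between the ages, from 88.3 to 8.26 for Isl2, whereas the symbols of Chat nearly coincide at 23.4 and 24.5.

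Isl1, the LIM homeodomain factor that marks new motor neurons, had the highest level per length of the 5 transcription factors at both ages. Its mean normalized count was 1238 at E13.5 and 631 at E18.5, a difference of -0.69 on the log2 scale, or 1.61-fold lower. Per kilobase of exon it stood at 313 at E13.5 and 159 at E18.5. The gene (ENSMUSG00000042258.13) lies on the minus strand of chromosome 13 at 116298281 to 116309689 of GRCm38.

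Isl2, the close relative of Isl1 that follows it in differentiating motor neurons, had the lowest age ratio of the 10 genes. Its mean normalized count was 88.3 at E13.5 and 8.26 at E18.5, a log2 ratio of -2.99, which lay at percentile 0.213 of the ratios of all tested genes. It passed the minimum of 10 only through E13.5, so among the tested genes it had to be lower at E18.5. The normalized counts of the 8 libraries at E18.5 could be solved from the mean and were 5.10, 5.14, 5.26, 6.00, 9.05, 11.3, 11.6 and 12.7. None was at 0, and with a mean of 8.26 over 8 libraries none could have reached the E13.5 mean of 88.3. Per kilobase, Isl1 stood 7.76 times above Isl2 at E13.5 and 42.3 times above it at E18.5, or 17.9 and 97.7 times with median transcript lengths. The gene (ENSMUSG00000032318.12) is on the plus strand of chromosome 9 at 55538672 to 55546180.

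Lhx3 and Lhx4, the LIM homeodomain factors that pair with Isl1 in motor neurons and shape the pituitary, were lower at E18.5 to nearly the same degree. Lhx4 had mean normalized counts of 362 at E13.5 and 54.3 at E18.5, a log2 ratio of -2.43. Lhx3 had means of 71.7 and 10.8, a log2 ratio of -2.35. The level of Lhx4 per kilobase was 2.68 times that of Lhx3 at both ages, and 3.26 and 3.27 times with median transcript lengths. For Lhx3, the 8 solved libraries at E18.5 held normalized counts of 3.08, 6.12, 8.42, 9.50, 10.3, 12.5, 17.0 and 19.1. These spread widely around their mean of 10.8, which left little room for any to reach the E13.5 mean of 71.7. Lhx3 (ENSMUSG00000026934.15) lies on chromosome 2 at 26200212 to 26208289 and Lhx4 (ENSMUSG00000026468.14) on chromosome 1 at 155698031 to 155751684, both on the minus strand. The antisense gene Gm27196 covers 188 exon bases of Lhx3, 6.17% of its exon length. Its own means were 6.32 and 0.871, and because reads were counted without strand, reads in the shared bases could not be assigned to either gene.

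Mnx1, the homeodomain factor that keeps motor neurons from taking an interneuron fate, had the lowest level of the 10 genes and did not reach a mean of 10 at either age. Its normalized counts in the 6 libraries of E13.5 were 0, 2.75, 4.04, 5.22, 12.1 and 20.5, around a mean of 7.43. At E18.5 they were 0 in 5 libraries and 0.857, 0.965 and 4.22 in the other 3, around a mean of 0.756. The groups of libraries overlapped, since 1 library at E13.5 also stood at 0. In adjusted counts this was 44 over the 6 libraries of E13.5 and 6 over the 8 libraries of E18.5. Its log2 ratio was -1.98 with 1 added to each mean and -2.85 with 0.1 added, so the size of the ratio rests on that choice. It also rests on single libraries: with each left out in turn, the mean ran from 4.82 to 8.92 at E13.5 and from 0.260 to 0.864 at E18.5, the lowest mean of each age being that without its highest library. Mnx1 (ENSMUSG00000001566.9) lies on chromosome 5 at 29473034 to 29478470, on the minus strand.

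**Figure D2:**
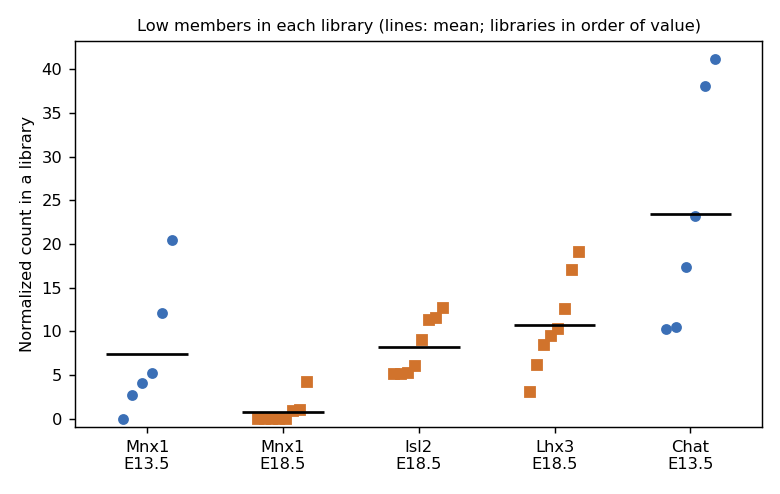
The vertical axis gives normalized counts in single libraries for the gene and age pairs low enough to be solved from their means, with libraries in order of value and the horizontal line at the mean. Which library belongs to which fetus or genotype is not known. In normalized counts the widest spread is that of Chat at E13.5, from 10.3 to 41.1. Relative to the mean, Mnx1 spreads more widely, from 0 to 20.5 around 7.43 at E13.5.

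The promoter windows of the 3 factors that were at least 2-fold lower are shown because these genes were lower together. The sequences are from RefSeq on GRCm38.p6 and run from 250 bases before to 50 bases after an annotated transcript start. Capitals mark matches on either strand to any of 5 words, namely the homeodomain word TAATTA, the E-box CAGCTG, the GC box GGGCGG, the TATA word TATAAA and AGGTCA, the half-site of nuclear receptors such as those of thyroid hormone. For Lhx3, which has windows at 2 starts, the window of the more downstream start is shown.
Isl2 (chr9:55540899-55541198, plus strand): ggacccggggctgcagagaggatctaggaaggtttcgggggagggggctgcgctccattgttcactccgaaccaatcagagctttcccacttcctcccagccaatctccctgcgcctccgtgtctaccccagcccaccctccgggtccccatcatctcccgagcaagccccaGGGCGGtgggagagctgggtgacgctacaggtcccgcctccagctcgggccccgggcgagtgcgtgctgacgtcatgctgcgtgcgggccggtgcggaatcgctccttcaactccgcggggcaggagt
Lhx3 (chr2:26206526-26206825, minus strand): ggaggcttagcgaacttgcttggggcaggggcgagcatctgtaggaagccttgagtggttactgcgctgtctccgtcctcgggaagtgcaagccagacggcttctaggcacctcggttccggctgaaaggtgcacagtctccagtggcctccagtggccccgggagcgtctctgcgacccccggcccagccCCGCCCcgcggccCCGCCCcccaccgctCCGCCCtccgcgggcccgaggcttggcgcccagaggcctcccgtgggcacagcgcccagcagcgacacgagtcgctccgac
Lhx4 (chr1:155741978-155742277, minus strand): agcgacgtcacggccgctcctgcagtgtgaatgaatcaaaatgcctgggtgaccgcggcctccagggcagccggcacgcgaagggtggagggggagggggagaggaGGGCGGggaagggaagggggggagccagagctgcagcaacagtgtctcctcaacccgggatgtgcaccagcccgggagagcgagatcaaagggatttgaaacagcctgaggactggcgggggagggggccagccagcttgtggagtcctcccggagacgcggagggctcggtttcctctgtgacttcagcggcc
The 3 windows shown held the GC box and none of the other 4 words, while the other window of Lhx3, not shown, held 2 GC boxes and the TATA word 176 bases before its start. It began 78 bases before the start in Isl2, 144 before it in Lhx4, and 59, 46 and 31 before it in Lhx3. The GC box was found in 35.7% of 32851 RefSeq windows of this length and in 8 of the 13 windows of the 10 genes. GC content was 67.3% for Isl2, 71.0% for Lhx3 and 66.3% for Lhx4, against a median of 52.7% over all windows. TAATTA and AGGTCA were in 0 of the 13 windows, and in 5.29% and 16.3% of all windows. CAGCTG was in the windows of Mnx1, Isl1 and Chat, and in 16.3% of all windows.

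The axon proteins of the set differed in level and in direction. Islr2, a leucine-rich repeat membrane protein of growing axons, had the highest level of the 10 genes, with mean normalized counts of 12900.3 at E13.5 and 13806.5 at E18.5. These placed it at percentiles 99.3 and 99.5 of the genes with a mean above 0. Its log2 age ratio of 0.38 was inside the quartiles of all tested genes, -0.37 and 0.52. Per kilobase it stood at 2179 at E13.5 and 2332 at E18.5. Islr2 (ENSMUSG00000051243.14) lies on chromosome 9 at 58196297 to 58204319, on the minus strand. Its exons share 181 bases, 3.06% of their length, with those of its relative Islr on the same strand, whose means were 621 and 533. A pseudogene on the other strand covers 55 more exon bases, 0.929% of the length.

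Prph encodes peripherin, the intermediate filament of neurons that send axons out of the central nervous system. Its mean normalized count was 431 at E13.5 and 187 at E18.5, 1.89-fold lower, with a log2 ratio of -0.92. The ratio lay at percentile 7.42 of all tested genes and passed 2-fold where the shift between tables was not taken off, and at -1.02 where levels were shares of the summed protein-coding means. Prph (ENSMUSG00000023484.14) lies on chromosome 15 at 99055174 to 99058978, on the plus strand. Its promoter window is shown because it is 1 of 3 among the 13 to hold the TATA word, which 13.6% of all windows hold, and the one with that word nearest the start.
Prph (chr15:99054924-99055223, plus strand): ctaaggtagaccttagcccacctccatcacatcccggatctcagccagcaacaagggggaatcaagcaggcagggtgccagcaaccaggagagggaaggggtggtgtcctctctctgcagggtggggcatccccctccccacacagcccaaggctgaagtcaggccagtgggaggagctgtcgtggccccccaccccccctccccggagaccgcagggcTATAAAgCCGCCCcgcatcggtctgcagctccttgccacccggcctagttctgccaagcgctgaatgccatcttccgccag
The TATA word began 31 bases before the start and the GC box 24 bases before it.

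The genes for making, packing and regaining acetylcholine had log2 ratios from 0.10 to 0.58, at percentiles 56.5 (Slc18a3), 68.6 (Chat) and 76.5 (Slc5a7) of all tested genes. Chat, the enzyme that joins choline and acetyl-CoA, had the lowest level per length of these 3 genes. Its mean normalized count was 23.4 at E13.5 and 24.5 at E18.5, with a log2 ratio of 0.34. In the 6 libraries of E13.5 the normalized counts were 10.3, 10.4, 17.4, 23.2, 38.0 and 41.1. This spread between libraries was wider than the 1.27-fold difference between the ages. The library values at E18.5 could not be solved to 1 answer, and the mean there rests on 186 to 228 adjusted counts in all.

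Slc18a3 had mean normalized counts of 159 at E13.5 and 140 at E18.5, with a log2 ratio of 0.10 after the shift was taken off. The sign of that ratio depends on the scaling, which moved it from -0.18 to 0.13. Slc5a7 had means of 224 and 276 and a log2 ratio of 0.58, above the upper quartile of 0.52 over the tested genes. Across the scalings its ratio stayed above 0, from 0.30 to 0.60, as did that of Chat, from 0.06 to 0.37. Per kilobase, Slc18a3 stood at 65.8 and 58.1, Slc5a7 at 39.8 and 48.9, and Chat at 4.98 and 5.20. The transporters stood above the enzyme at both ages, Slc18a3 by 13.2 and 11.2 times and Slc5a7 by 7.99 and 9.41 times. These sizes depended on the length used for Chat: with the median transcript length it stood at 35.6 and 37.1 per kilobase, with Slc18a3 above it by 1.85 and 1.57 times and Slc5a7 by 1.55 and 1.82 times. Slc5a7 (ENSMUSG00000023945.7) lies on chromosome 17 at 54273590 to 54299034, on the minus strand.

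Chat and Slc18a3 share the cholinergic gene locus on the minus strand of chromosome 14. Chat (ENSMUSG00000021919.8) spans 57787 bases at 32408203 to 32465989. Slc18a3 (ENSMUSG00000100241.1) spans 2413 bases at 32462438 to 32464850 and has 1 exon. That exon starts 1139 and ends 3551 bases downstream of the start of Chat, inside its first intron, and the exons of the pair share 0 bases. The antisense gene Gm2990 overlaps the span of Chat but shares 0 exon bases with it, and its means were 17.7 and 10.9.

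**Figure D3:**
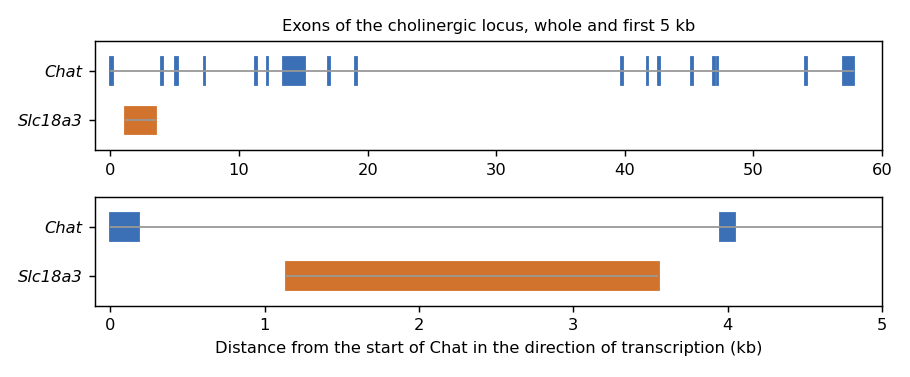
Boxes are the annotated exons of Chat and Slc18a3 (union over transcripts) against distance in kilobases from the start of Chat, in the direction of transcription, over the whole locus above and over its first 5 kb below. The single exon of Slc18a3 lies between 1139 and 3551 bases, between the first exon of Chat and the next.

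The promoter windows of both genes are shown because the genes share this locus while their levels differ.
Chat (chr14:32465860-32466159, minus strand): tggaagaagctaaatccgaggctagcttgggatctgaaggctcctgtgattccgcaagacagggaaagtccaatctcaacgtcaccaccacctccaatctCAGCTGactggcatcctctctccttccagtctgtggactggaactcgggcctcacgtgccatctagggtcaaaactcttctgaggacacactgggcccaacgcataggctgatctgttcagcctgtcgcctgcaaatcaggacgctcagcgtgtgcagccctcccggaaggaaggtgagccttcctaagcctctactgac
Slc18a3 (chr14:32464801-32465100, minus strand): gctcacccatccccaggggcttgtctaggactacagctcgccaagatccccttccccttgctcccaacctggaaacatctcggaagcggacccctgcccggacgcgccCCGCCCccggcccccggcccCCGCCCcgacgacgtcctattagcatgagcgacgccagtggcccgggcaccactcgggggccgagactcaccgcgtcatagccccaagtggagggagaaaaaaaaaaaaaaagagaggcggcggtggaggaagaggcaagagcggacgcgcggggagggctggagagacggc
The window of Chat held an E-box 150 bases before the start and no GC box. The window of Slc18a3 held GC boxes 142 and 122 bases before the start and no E-box. GC content was 55.7% in Chat and 67.0% in Slc18a3, and it was 44.7% in the window of Slc5a7, the lowest of the 13.

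Among the 5 transcription factors the median log2 ratio was -2.35, and among the 3 acetylcholine genes it was 0.34. Over all 10 genes it was -0.81, while the median over all tested genes was 0.00073. The ratio closest to the 2-fold threshold from inside was that of Lhx3 at -2.35 and from outside that of Prph at -0.92, Mnx1 having been below the minimum mean. In level per kilobase at E13.5 the order from the top was Islr2, Isl1, Prph, Slc18a3, Lhx4, Isl2, Slc5a7, Lhx3, Chat and Mnx1. At E18.5 it was Islr2, Isl1, Prph, Slc18a3, Slc5a7, Lhx4, Chat, Isl2, Lhx3 and Mnx1. Chat then stood above Isl2 and Lhx3, which stood at 3.77 and 3.53 per kilobase against 5.20 for Chat. The change of place with Lhx3 depends on the length: with median transcript lengths Chat already stood above Lhx3 at E13.5, at 35.6 against 34.4. The change with Isl2 held with those lengths, Isl2 standing at 57.7 at E13.5 and at 5.39 against 37.1 for Chat at E18.5. With the longest transcripts Chat stood below both genes at E13.5 and above both at E18.5. Other places also depended on the length. With median transcript lengths Lhx4 stood above Slc18a3 at E13.5, at 112 against 65.8. With the same lengths Slc5a7 stood above Slc18a3 at E18.5, at 67.6 against 58.1. Without a value per library for most genes, whether neighbours in these orders differ beyond their spread was not tested.

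**Figure D4:**
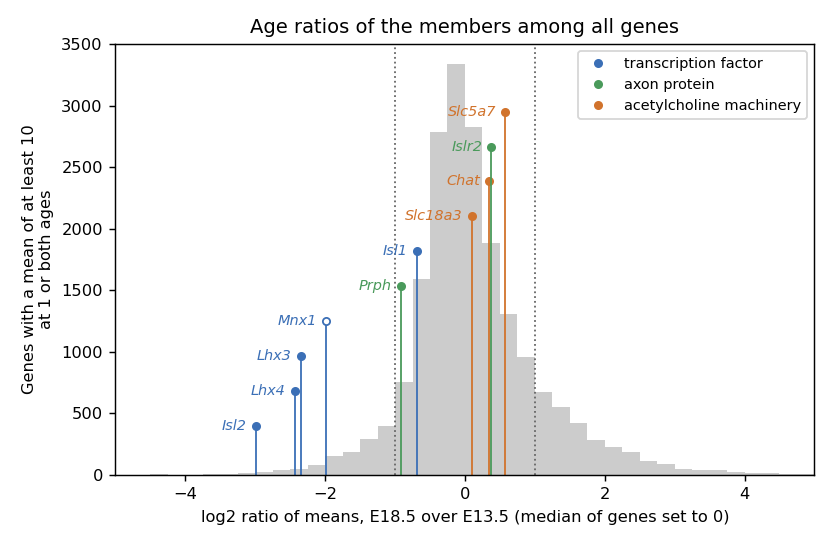
Grey bars count all genes with a mean of at least 10 at 1 or both ages by their log2 ratio of means, E18.5 over E13.5, within -5 to 5, and the dotted lines mark 2-fold. Stems mark the 10 genes by role, their heights only spreading the labels, with the open circle for Mnx1, which was below the minimum. Isl2, Lhx4 and Lhx3 lie in the lower tail, Slc18a3 and Chat inside the quartiles and Slc5a7 just above the upper one.

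The set holds 4 of the 12 LIM homeobox genes examined. Of the 12, 7 were at least 2-fold lower at E18.5 and 1 was at least 2-fold higher, with a median log2 ratio of -1.88. Over all tested genes, 6.42% were at least 2-fold lower and 14.2% higher, shares that apply to the following lists too. Isl2, Lhx3 and Lhx4 are among the 7, and the median also includes Isl1, so the list is no separate background for the set. Isl2 passed the minimum mean only through E13.5, which fixed its direction. Those lower outside the set were Lhx1, Lhx5, Lmx1a and Lmx1b. Lhx5, which acts in forebrain patterning, had means of 2286 and 337 and a log2 ratio of -2.48. Lhx1, its relative, had means of 4686 and 903 and a log2 ratio of -2.09. Lmx1b and Lmx1a, which specify dopamine neurons and roof plate, stood at -2.02 and -1.73. Lhx2 and Lhx9 stood at -0.94 and -0.92, and Lhx8, which specifies basal forebrain cholinergic neurons, at -0.15. Lhx6, a factor of cortical interneurons, was the one higher gene, with means of 496 and 1019.

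Other factors that specify spinal and cranial motor neurons were lower at E18.5 in 13 of 18 genes, 10 of them by at least 2-fold. The list's median log2 ratio was -1.70, and 2 of its genes were at least 2-fold higher. The largest difference downward was that of Nkx6-1, a factor of ventral progenitors, with means of 827 and 108. The largest upward was that of Etv4, an ETS factor, with means of 110 and 280. The adaptor Ldb1 had the highest mean of the list, 7561 at E13.5 and 3735 at E18.5. Of the 7 factors of forebrain cholinergic neurons, 4 were at least 2-fold lower and 0 higher, with a median of -1.14. Zic4 had the highest mean of that list, 1767 at E13.5 and 1741 at E18.5, with a log2 ratio of 0.26.

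The lists of partners of the acetylcholine genes had different medians. Of 7 tested genes of acetylcholine breakdown and choline supply, 1 was at least 2-fold higher and 0 lower, with a median of 0.10. These counts were near the shares of all tested genes, 14.2% higher and 6.42% lower. The higher gene was Ache, the acetylcholinesterase, with means of 329 and 1448 and a log2 ratio of 2.41. The lowest ratio there was that of Prima1, the membrane anchor of the same enzyme, at -0.79, and Pcyt1a had the highest mean, 2191 at E13.5. All 5 muscarinic receptors were at least 2-fold higher, with log2 ratios from 1.35 to 3.52 and a median of 2.09. Chrm1 had the largest ratio, with means of 65.8 and 630, and Chrm2 the highest mean, 774 at E18.5. Of 12 tested nicotinic receptor subunits, 4 were at least 2-fold higher and 1 lower, with a median of 0.25. Of these, 3 of the higher genes passed the minimum mean only through E18.5 and the lower gene only through E13.5, so the minimum itself fixed their direction. The extremes were Chrnb3 with means of 5.52 and 32.1 and Chrng, the fetal muscle subunit, with 16.3 and 4.84. Chrnb2, a subunit of the common brain receptor, had the highest mean, 3189 at E13.5.

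Among the 7 vesicular transmitter transporters, to which Slc18a3 belongs, 1 was at least 2-fold higher and 0 lower. These counts too were near the shares of all tested genes, 14.2% higher and 6.42% lower. The list's median of 0.10 is the ratio of Slc18a3 itself, its middle gene. The higher gene was Slc17a7, a glutamate transporter, with means of 161 and 862. Slc18a2, the monoamine transporter related to Slc18a3, had means of 839 and 710 and a log2 ratio of 0.04, and Slc18a1 had means of 17.8 and 8.20. Slc17a6 had the highest mean of the list, 4731 at E18.5. Among the 9 intermediate filament genes, to which Prph belongs, 2 were at least 2-fold higher and 2 lower. Nefh and Gfap, filaments of mature axons and of astrocytes, were the higher genes, Gfap, admitted through E18.5 alone, with means of 4.71 and 501. Nes and Vim, filaments of progenitors, were the lower ones at -2.14 and -1.54, and Ina had the highest mean, 28757 at E13.5. Nefl and Nefm, which assemble with peripherin, stood at 0.20 and -0.37.

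**Figure D5:**
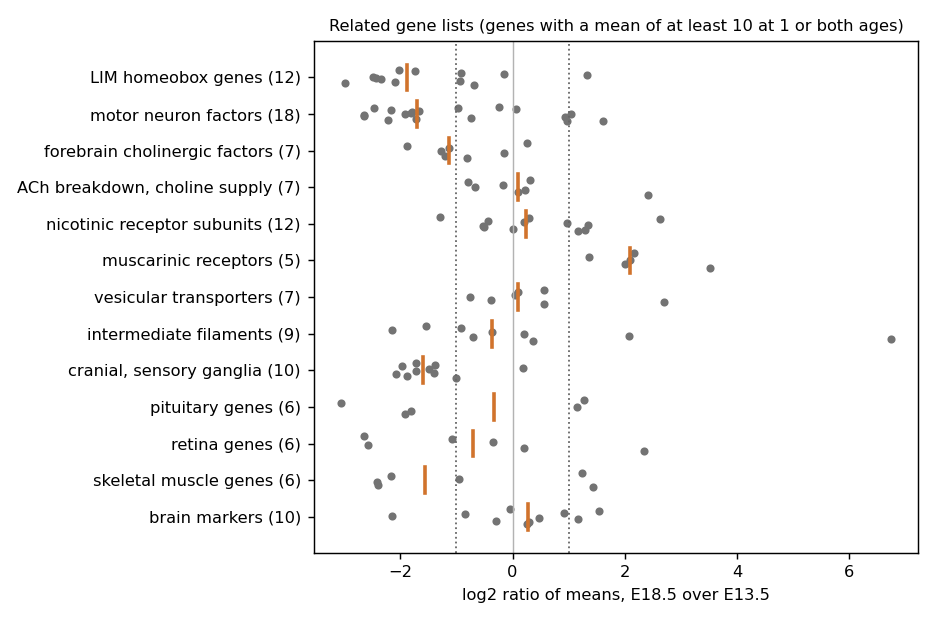
Each grey point is a gene with a mean of at least 10 at 1 or both ages, placed by its log2 ratio of means, E18.5 over E13.5, the orange bar is the list's median, and the number of genes is in brackets. Gh, listed at 0 at E13.5, has no point but counts toward its list's median. All 5 muscarinic receptors lie beyond 1, while 7 of the 12 LIM homeobox genes lie beyond -1, Isl2, Lhx3 and Lhx4 of the set among them.

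Genes of tissues beside the brain that share these markers differed in mean between the ages as well. The shares of all tested genes to set beside their counts were 6.42% lower and 14.2% higher. Of 10 tested genes of cranial and sensory ganglia, where Isl1, Isl2 and Prph are also made, 9 were at least 2-fold lower, 1 of them admitted through E13.5 alone, and 0 higher, and the summed mean of the 11 genes in the tables was 5336 at E13.5 and 1987 at E18.5. Pou4f1, a sensory neuron factor also made in midbrain and habenula, was the highest of them and the lowest in ratio, with means of 2710 and 528, and Scn9a had the highest ratio at 0.18. The 11 pituitary genes, relevant to Lhx3 and Lhx4, summed to 734 and 1280. Of the 6 that could be tested, 3 were at least 2-fold lower and 3 higher. Gh, growth hormone, was listed at 0 at E13.5 and had a mean of 963 at E18.5. Of 6 tested retina genes, 3 were at least 2-fold lower and 1 higher, and the summed mean of the 7 was 998 and 653. The higher gene and 1 of the lower ones passed the minimum through 1 age alone. Atoh7 had means of 7.37 and 34.1, and Pou4f2 had the highest mean, 543 at E13.5. Of 6 tested skeletal muscle genes, 3 were at least 2-fold lower and 2 higher, and the summed mean of the 8 was 400 and 212. Here, as among the pituitary genes, 1 gene in each direction passed the minimum through 1 age alone. Myh3, embryonic myosin, had means of 132 and 19.6, and Acta1 had 48.7 and 109. Of these 4 lists, Gh at E13.5 was the one gene at 0. The part of such tissues in the levels of the 10 genes was not tested.

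Of the 10 brain markers, 2 were at least 2-fold higher and 1 lower, with a median log2 ratio of 0.28. For all tested genes the shares were 14.2% higher and 6.42% lower. Syn1, a synaptic vesicle protein, had the largest ratio at 1.55 and Nes the lowest, while Map2 had the highest mean, 66708 at E18.5.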

How the data were processed

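RNA of 14 whole fetal brains was sequenced in 2 batches. The authors trimmed reads with cutadapt 3.1, aligned them to GRCm38 with STAR 2.5.3a, counted them on GENCODE genes with HTSeq over the union of features without strand, and adjusted the counts between batches with ComBat-seq, which can change both level and spread. For each age they deposited 1 table. The deposited mean normalized count is a signal that the authors made by dividing each library's adjusted counts by its size factor and averaging over all libraries of the age, and it was the only measure used. The other deposited columns hold the authors' own comparison of genotypes made with DESeq2 (fold changes, their errors, test statistics and p-values) and were not used. Per-sample columns left out numbered 0.

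Because no deposited column holds a value per library, the planned fit between genotypes could not be run. Age ratios are log2((mean + 1) at E18.5 over (mean + 1) at E13.5), centred on the median of genes with a mean of at least 10 at both ages, and genes past 2-fold with a mean of at least 10 at 1 or both ages were counted. Low means are whole-number sums of 6 or 8 fixed steps, 1 per library, from which size factors and the counts of low genes were solved. All 5040 genes at E13.5 and 6177 at E18.5 with a mean under 0.7 were solved (100%), and the solver was tested on simulated data. Total reads per library are unknown. Lengths, positions and overlaps came from GENCODE M21, which held 41632 of the gene IDs and not 302, and promoters from RefSeq. Levels per kilobase use the union of exons.

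All 10 genes are named. Genes of the 13 lists are named where they had the highest mean or the largest ratio in a direction, or share a family or locus with one of the 10. Some genes this rule would name are not reported here. The genes and lists were chosen with earlier results of these data known. Python 3.11.15, numpy 2.4.6 and pandas 2.3.3 were used.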

Additional observations from a re-analysis of the deposited data

How the results depend on the processing

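The direction of 9 of the 10 age ratios held under the 5 alternatives for scaling and pseudocount, and only that of Slc18a3 changed sign, between -0.18 and 0.13. The number of genes at least 2-fold lower was 3 (Isl2, Lhx3 and Lhx4) when levels were shares of the summed means or the minimum mean was 50. At the minimum of 50, Isl2 and Lhx3 passed only through E13.5, so that minimum itself fixed their direction. The alternative that sums gene entries sharing a symbol had nothing to change, since each symbol had 1. The number was 4 as deposited without centring, with Prph added (its ratio also passed 2-fold, at -1.02, as a share of summed protein-coding means), and 4 with no minimum, with Mnx1 added. At a threshold of 1.5-fold it was 5, with Isl1 and Prph added. Over all 19461 tested genes, that threshold gave 4534 higher and 2943 lower in place of 2761 and 1250. Without centring there were 2152 lower and 2027 higher. With shares of the summed means there were 1393 lower and 2564 higher. With no minimum there were 1572 lower and 4169 higher of 33912 genes. At the minimum of 50 there were 937 lower and 1873 higher of 14731 genes. With 0.1 added in place of 1, the ratio of Mnx1 was -2.85. Levels per kilobase moved for 4 of 20 values with the longest transcript and for 8 of 20 with the median transcript, and percentiles moved by over 10 points for 17 of 20 among protein-coding genes alone.

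No paired analysis was possible because the tables hold 1 mean per age and no value per library, and most genes have no library values to leave out. For the 5 means with solved libraries, leaving out each in turn was added after seeing the data. The mean of Mnx1 ran from 4.82 to 8.92 at E13.5 and from 0.260 to 0.864 at E18.5, with log2 ratios from -2.46 to -1.45. For Isl2 (-3.09 to -2.92) and Lhx3 (-2.50 to -2.22) only the libraries of E18.5 were solved. Leaving out 1 of those could not have changed the direction or the side of 2-fold. For Chat only the libraries of E13.5 were solved, and its ratio (0.19 to 0.57) kept its direction and its side of 2-fold. The shares of Dio3-/- fetuses, the batches and the separate normalization of the ages limit every ratio between ages.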
